A study of Homo sapiens with 8 samples.

Results

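SR and hnRNP genes encode the main families of RNA-binding proteins that decide which exons are kept in an mRNA. Their mRNA levels were followed in A2780, a cultured line from a human ovarian carcinoma. The cells had received DMSO as solvent, olaparib, palbociclib, or the 2 drugs together (the combination, Ola/PD) for 24 hours, and each of these 4 groups had 2 libraries. Olaparib blocks PARP1 and PARP2, enzymes of DNA break repair, while palbociclib blocks CDK4 and CDK6, which drive entry into S phase. The members were all protein-coding genes whose GENCODE v29 symbol starts with SRSF and a digit or with HNRNP, which gave 39 genes, 12 SRSF and 27 HNRNP. Of these, 35 of the 31721 genes in the deposited table were used (12 SRSF and 23 HNRNP). Levels of HNRNPCL1, HNRNPCL2, HNRNPCL3 and HNRNPCL4 were not analysed here. The rule took no measured value. Drug doses were not analysed here. The design text calls the 2 libraries of a group biological repeats and does not mention separate cultures, so p-values measure only the spread between libraries, which may be technical.

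SR proteins carry 1 or 2 RNA recognition motifs and a tail rich in arginine-serine dipeptides. They bind exonic enhancers and bring the U1 and U2 particles to nearby splice sites. The hnRNP proteins coat nascent transcripts, and many of them silence exons, so that a splice choice often rests on the balance of both families. Genes of both families also regulate themselves by splicing in exons with premature stop codons, which send the mRNA to nonsense-mediated decay.

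Those exons are shown first because the gene-level values below pool productive and decay-prone transcripts. GENCODE v29 lists at least 1 transcript of the nonsense-mediated decay class for each of the 12 SRSF genes (25 transcripts in all) and for 14 of the 23 HNRNP genes (60.9%), against 44.8% of the 10175 protein-coding genes tested. A retained-intron transcript is listed for 9 of the 12 SRSF genes and 14 of the 23 HNRNP genes, against 59.4% of the same background. An internal exon that overlaps no exon of the same gene's protein-coding transcripts and holds the stop codon was found in 10 members, 6 of them SRSF genes. There were 15 such exons, of which some are shown, and shared runs were sought over all 15. HNRNPUL2-BSCL2, also among the 14 HNRNP genes above, shares 100% of its exon bases with other genes. It lists no protein-coding transcript of its own, so its exon passed this rule by default. The stretches below run 5′ to 3′ on the strand of the gene from the first base of such an exon to its stop codon, which is in capitals, on GRCh38. The SRSF3 exon (chr6:36599821-36599854 shown, plus strand) is 456 bases long, the SRSF4 exon (chr1:29160018-29160058, minus) 195, the SRSF6 exon (chr20:43459153-43459304, plus) 268, the SRSF7 exon (chr2:38749319-38749346, minus) 449 and the HNRNPLL exon (chr2:38577956-38578002, minus) 83. Not shown are a further exon of SRSF3 (98 bases), a further exon of SRSF4 (175) and further exons of SRSF7 (69 and 276).
SRSF3: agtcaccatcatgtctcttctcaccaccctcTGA
SRSF4: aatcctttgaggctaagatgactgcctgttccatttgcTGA
SRSF6: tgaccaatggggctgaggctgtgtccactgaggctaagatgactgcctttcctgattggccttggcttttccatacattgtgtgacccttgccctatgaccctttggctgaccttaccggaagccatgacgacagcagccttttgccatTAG
SRSF7: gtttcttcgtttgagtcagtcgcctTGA
HNRNPLL: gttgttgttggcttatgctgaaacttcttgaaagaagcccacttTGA
The SRSF4 and SRSF6 stretches share a run of 20 bases, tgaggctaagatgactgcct, and the next longest run shared between stretches of different members was 9 bases, over 99 pairs. The FPKM values (sequenced fragments per exon length, scaled between libraries by the authors) do not separate these exons from the rest of each gene.

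Recovered depth over the 28635 genes whose values gave whole reads ran from 18158713 to 30122425 reads per library. No pair of libraries in a group was a repeat deposit (chi-square per degree of freedom of 2.29 to 3.80 within groups). The labelled morphology is epithelial, yet the 7 epithelial markers summed to 0.577 to 1.76 FPKM over the 8 libraries, with CDH1 at most 0.0124, and the 4 ovarian carcinoma markers to 0.763 to 1.70. The label thus goes against its defining markers, while VIM, a mesenchymal filament gene, stood at 236.7 to 349.7 FPKM. The 4 mesenchymal markers summed to 257 to 262 FPKM in DMSO and 335 to 359 with palbociclib. Almost all of this sum was VIM, at 248.1 and 252.7 FPKM in DMSO and 349.7 and 326.0 with palbociclib. FN1 was at most 0.289, CDH2 at most 3.07 and ZEB1 at most 6.56 FPKM. Both palbociclib libraries lay above both DMSO libraries for CDH2 and FN1, and below them for ZEB1. The epithelial markers summed to 0.577 to 0.646 FPKM in DMSO and 1.34 to 1.40 with palbociclib. The part of these markers in the members' values was not tested. Leukocyte, endothelial and erythroid markers summed to at most 0.618, 0.0169 and 0.435 FPKM. KRT7, WT1, PTPRC, CD3E and KDR were not analysed here.

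In DMSO the members spanned more than 2 orders of magnitude in level. HNRNPA1, a core packaging protein and exon silencer, was the most abundant at 485.9 ± 9.17 FPKM (SD, n = 2 here and below), followed by HNRNPAB at 296.3 ± 3.83, HNRNPA2B1 at 248.6 ± 8.92, HNRNPK at 199.8 ± 1.28 and HNRNPC at 177.6 ± 1.54. SRSF1, the founding SR protein, led its family at 131.1 ± 0.89 FPKM, ahead of SRSF7 (113.0 ± 1.92), SRSF2 (98.4 ± 2.01) and SRSF3 (95.7 ± 1.87). The lower SRSF2 library (97.0) and the higher SRSF3 library (96.97) nearly met. At the low end stood SRSF12 at 3.09 ± 0.02 and HNRNPA1L2, an intronless HNRNPA1 copy, at 3.20 ± 0.02 FPKM. HNRNPUL2-BSCL2, a readthrough locus, held at most 6 reads in a library and was the 1 member below the filter of a mean of 1 FPKM, which left 34 tested members, 32 of them with a mean of at least 10 FPKM. Reads of HNRNPA1 and of its copies HNRNPA1L2 and HNRNPA1P48 may be split among them, so these 3 are uncertain. Exons of other genes overlap 60.7% of the exon bases of SRSF1 (AC015813.2 on its strand), 46.2% of SRSF9 (GATC, opposite strand), 44.2% of HNRNPUL2 (the readthrough) and 36.7% of SRSF2 (MFSD11, opposite strand). These 4 carry some doubt, as no source used here states a strand setting for the counting. A strand setting would not separate the same-strand overlaps, AC015813.2 for SRSF1 and the readthrough for HNRNPUL2. Smaller overlaps were those of HNRNPH2 (16.3%, RPL36A-HNRNPH2 on its strand) and HNRNPU (15.6%, COX20, opposite strand).

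The first comparison set palbociclib against DMSO. Of the 34 tested members 28 were lower, none was higher and 6 did not pass (limma, Benjamini-Hochberg adjusted p under 0.05 over all 12443 genes tested). The 28 were 21 of 22 HNRNP genes but only 7 of 12 SRSF genes. Over all genes 31.4% were called lower and 18.7% higher. Among genes with a mean of at least 10 FPKM 49.8% were lower, against 27 of the 32 members in that range. The median log2 fold change of the members was −0.43, beside −0.05 for all genes tested and −0.15 for those of at least 10 FPKM. Both palbociclib libraries lay below both DMSO libraries in 31 of 34 members, against 46.3% of all genes. Shares of this kind, here and below, were not counted for genes of at least 10 FPKM alone. In bulk RNA fewer cells expressing a gene and less RNA per cell cannot be told apart.

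Per library, the 12 SRSF genes together made up 0.230% and 0.234% of all FPKM in DMSO and 0.220% and 0.214% with olaparib. They made up 0.185% and 0.181% with palbociclib, then 0.178% and 0.176% with the combination. The 23 HNRNP genes made up 0.890% and 0.881% in DMSO, 0.845% and 0.840% with olaparib, 0.683% and 0.662% with palbociclib, then 0.664% and 0.647% with the combination. These shares do not depend on how libraries are scaled to each other. In both families the 4 palbociclib-treated libraries lay below the 4 others, without overlap.

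**Figure D1:**
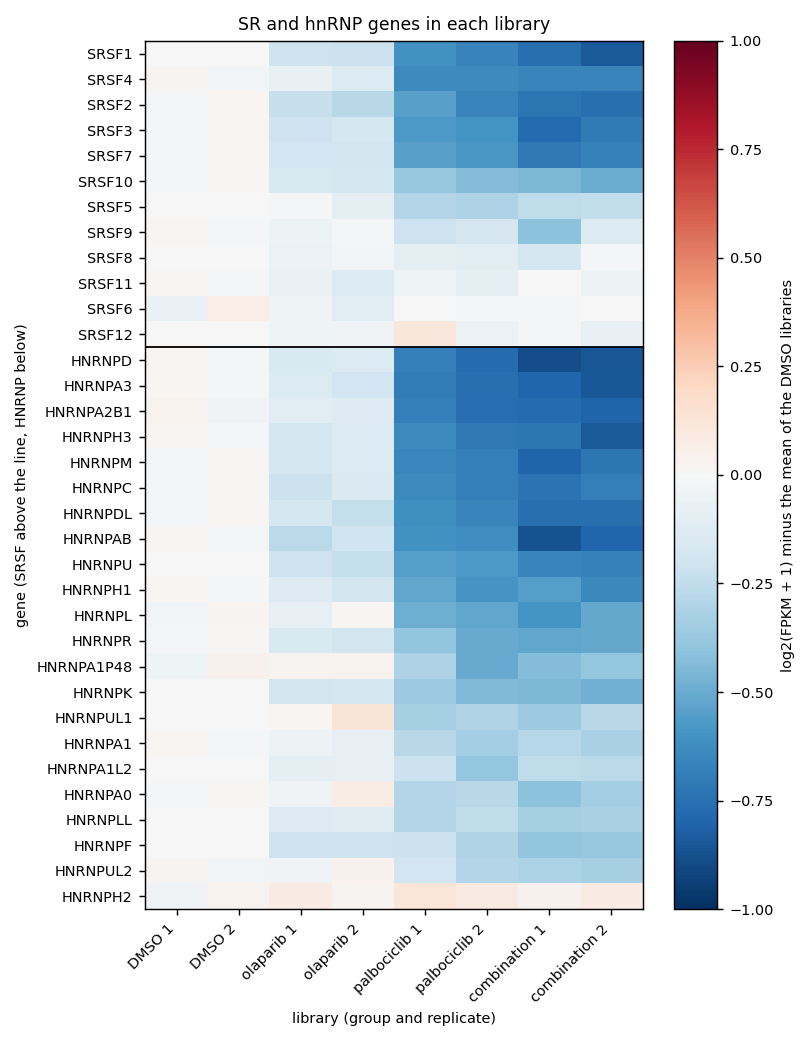
Change of log2(FPKM + 1) from the mean of the DMSO libraries (colour, blue lower and red higher) for the 34 tested members (rows, SRSF above the line, HNRNP below, each ordered by the palbociclib change) in the 8 libraries (columns). Palbociclib and combination columns are blue in most rows, and the rows of SRSF6, SRSF11, SRSF12 and HNRNPH2 stay pale.

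Among SR genes with a pair of RNA recognition motifs, palbociclib lowered SRSF1, SRSF4 and SRSF5. SRSF1 was 130.5 and 131.7 FPKM in DMSO, 113.2 and 112.7 with olaparib, 85.6 and 82.3 with palbociclib, then 77.2 and 72.8 with the combination. The groups did not overlap and fell in that order, and the share of all genes that do so was not counted. Its log2 fold change with palbociclib was −0.64 ± 0.04 (SE; limma adjusted p = 6.02e-05). SRSF4 was 17.8 and 17.1 FPKM in DMSO and 10.9 and 10.8 with palbociclib, with 10.7 and 10.6 for the combination, a log2 fold change of −0.64 ± 0.04 with palbociclib. SRSF5 moved less, from 62.7 and 63.0 FPKM in DMSO to 51.2 and 50.4 with palbociclib (log2 −0.30 ± 0.04, limma adjusted p = 0.000631), a call that was lost under quantile normalisation. SRSF9 was 41.3 and 40.6 FPKM in DMSO and 35.3 and 36.3 with palbociclib, and did not pass (−0.19 ± 0.08, limma adjusted p = 0.0878). SRSF6, which shares the exon run with SRSF4, was 46.1 and 50.7 FPKM in DMSO, 48.3 and 47.8 with palbociclib, then 47.8 and 48.3 with the combination. Its DMSO libraries enclosed those of both treatments, and its palbociclib value was −0.01 ± 0.05 (limma adjusted p = 0.889).

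Among SR genes with a single recognition motif, SRSF2, SRSF3, SRSF7 and SRSF10 fell with palbociclib. SRSF2, which binds both C-rich and G-rich exonic enhancers, was 97.0 and 99.8 FPKM in DMSO, 84.0 and 80.8 with olaparib, 67.1 and 61.9 with palbociclib, then 58.9 and 58.0 with the combination. SRSF3, the smallest SR protein, was 94.3 and 97.0 FPKM in DMSO, 82.9 and 84.7 with olaparib, 63.8 and 62.9 with palbociclib, then 55.5 and 58.1 with the combination. SRSF7, which unlike the other SR proteins has a zinc knuckle, was 111.6 and 114.4 FPKM in DMSO, 98.6 and 99.2 with olaparib, 77.4 and 75.1 with palbociclib, then 68.3 and 70.3 with the combination. In these 3 genes the 4 groups kept 1 order with no overlap, again without a counted share of all genes. Their log2 fold changes with palbociclib were −0.60 ± 0.05 for SRSF2, −0.59 ± 0.04 for SRSF3 and −0.56 ± 0.03 for SRSF7 (limma adjusted p = 0.0001, 6.07e-05 and 5.61e-05). SRSF10, which represses splicing when dephosphorylated, fell by 0.41 on the log2 scale (SE 0.04). SRSF8, SRSF11 and SRSF12 did not pass. SRSF11 was 36.6 and 35.9 FPKM in DMSO, 34.5 and 32.9 with olaparib, 35.2 and 33.9 with palbociclib, then 36.3 and 35.0 with the combination. SRSF8, a retrotransposed SRSF2 copy, was 14.2 and 14.1 FPKM in DMSO, 13.2 and 13.0 with palbociclib (−0.10 ± 0.05, limma adjusted p = 0.164).

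**Figure D2:**
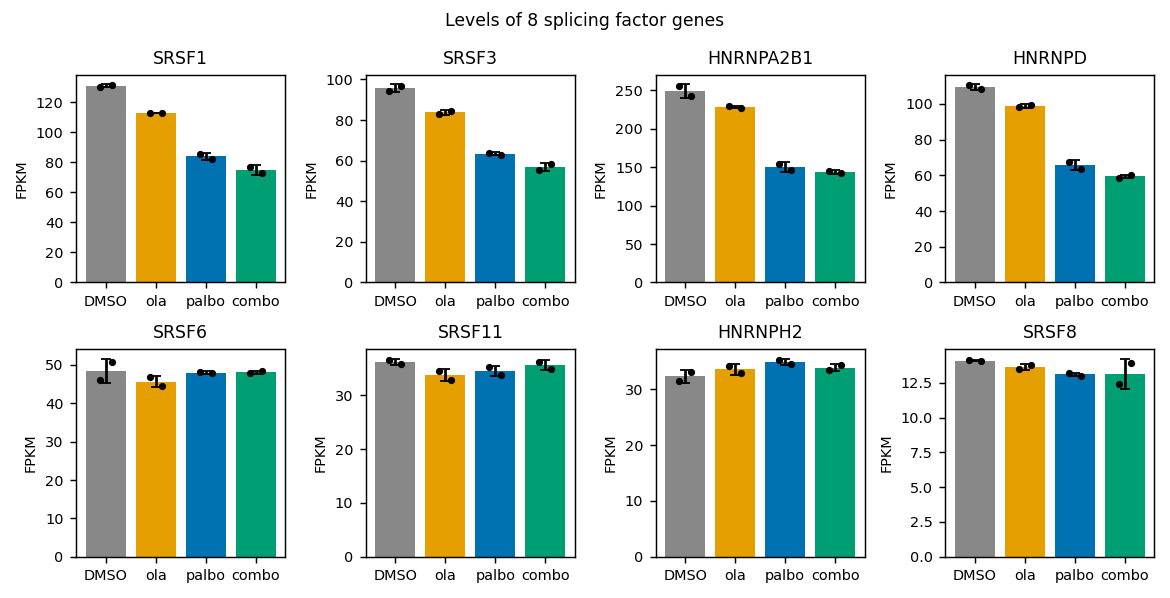
FPKM (vertical axes, from 0) of 8 members by treatment (ola, olaparib; palbo, palbociclib; combo, both drugs), with bars as means, error bars as SD and points as the 2 libraries of each group. SRSF1, SRSF3, HNRNPA2B1 and HNRNPD step down from DMSO to the combination, from 131.1 to 75.0 FPKM for SRSF1, while SRSF6, SRSF11, HNRNPH2 and SRSF8 stay near their DMSO levels.

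All 8 tested genes of the hnRNP A/B and D group fell with palbociclib, as did HNRNPA1P48, with a median log2 fold change of −0.63 for the 8. HNRNPD, also known as the AU-rich element binder AUF1, was 110.5 and 108.4 FPKM in DMSO, 98.1 and 99.6 with olaparib, 67.6 and 63.7 with palbociclib, then 58.8 and 59.98 with the combination. It had the lowest value of any member with palbociclib, −0.73 ± 0.04 (limma adjusted p = 4.15e-05). HNRNPA2B1, which binds N6-methyladenosine-marked and sorted RNAs, was 254.9 and 242.3 FPKM in DMSO, 229.4 and 227.0 with olaparib, 154.6 and 145.9 with palbociclib, then 145.3 and 142.1 with the combination. HNRNPA3 fell by 0.73 (SE 0.04) and HNRNPA2B1 by 0.72 (SE 0.04) on the log2 scale with palbociclib, so HNRNPD, HNRNPA3 and HNRNPA2B1 lay within 1 standard error of each other. HNRNPA1 had a smaller value. It was 492.4 and 479.5 FPKM in DMSO, 469.2 and 457.8 with olaparib, 401.2 and 382.7 with palbociclib, then 399.4 and 388.7 with the combination. That is a log2 fold change of −0.31 ± 0.04 with palbociclib (limma adjusted p = 0.000824). HNRNPA0 fell by 0.28 (SE 0.05) and HNRNPA1L2 by 0.30 (SE 0.07).

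HNRNPAB, a CArG-box and RNA binding protein, was 299.0 and 293.5 FPKM in DMSO, 246.1 and 257.5 with olaparib, 193.9 and 192.4 with palbociclib, then 161.1 and 170.6 with the combination. Its combination libraries lay below its palbociclib libraries with a wider gap than those of HNRNPA2B1. HNRNPC, which forms the tetramer that measures transcript length, fell by 0.66 (SE 0.04) with palbociclib, from 176.5 and 178.7 to 113.7 and 110.1 FPKM.

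In the hnRNP F/H group, whose proteins bind runs of G, 3 of 4 genes fell and HNRNPH2 did not pass. HNRNPH1 was 90.1 and 87.4 FPKM in DMSO and 61.6 and 58.8 with palbociclib (log2 −0.55 ± 0.05), and HNRNPH3 39.7 and 39.0 in DMSO and 24.9 and 23.6 with palbociclib (−0.68 ± 0.05). HNRNPF fell by 0.26 (SE 0.04), with the call lost under quantile normalisation. HNRNPH2, the X-linked paralog of HNRNPH1, was 31.5 and 33.2 FPKM in DMSO, 34.2 and 32.9 with olaparib, 35.3 and 34.5 with palbociclib, then 33.4 and 34.3 with the combination. Both palbociclib and both combination libraries lay above both DMSO libraries, and the palbociclib log2 value of 0.11 ± 0.04 did not pass (limma adjusted p = 0.0616). It was called higher under quantile normalisation and under TPM.

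The other hnRNP genes all fell with palbociclib, by differing amounts. HNRNPM, which binds GU-rich introns, was 118.9 and 121.3 FPKM in DMSO and 75.95 and 74.2 with palbociclib (log2 −0.67 ± 0.04). HNRNPU, a nuclear scaffold and RNA-binding protein, was 137.7 and 138.4 FPKM in DMSO, 119.5 and 117.1 with olaparib, 93.7 and 92.4 with palbociclib, then 87.0 and 85.9 with the combination, again in 4 groups without overlap. Its relatives HNRNPUL1 (−0.32 ± 0.05) and HNRNPUL2 (−0.24 ± 0.05) fell less. HNRNPL, a binder of CA repeats, fell by 0.50 (SE 0.05), and its paralog HNRNPLL, known for CD45 splicing in lymphocytes, by 0.27 (SE 0.03). HNRNPK, a poly(C) binder with KH domains, was 198.9 and 200.7 FPKM in DMSO and 154.8 and 147.1 with palbociclib (−0.40 ± 0.04). HNRNPR fell by 0.45 (SE 0.04).

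Each of the 28 members called lower with palbociclib was also called in all 8 fits that left out 1 library. Across all 14 alternative settings 26 of the 28 were called lower in every one, the exceptions being HNRNPF and SRSF5. Scaling moved the all-gene median: under TPM it rose by 0.12 with palbociclib and 0.17 with the combination. Relative to that median the members' median with palbociclib was −0.38 as deposited, −0.42 under TPM and −0.31 under quantile normalisation. With the combination it was −0.43, −0.47 and −0.30. Of all calls with palbociclib 37.3% were higher as deposited and 58.6% under TPM, and with the combination 37.8% and 60.3%.

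**Figure D3:**
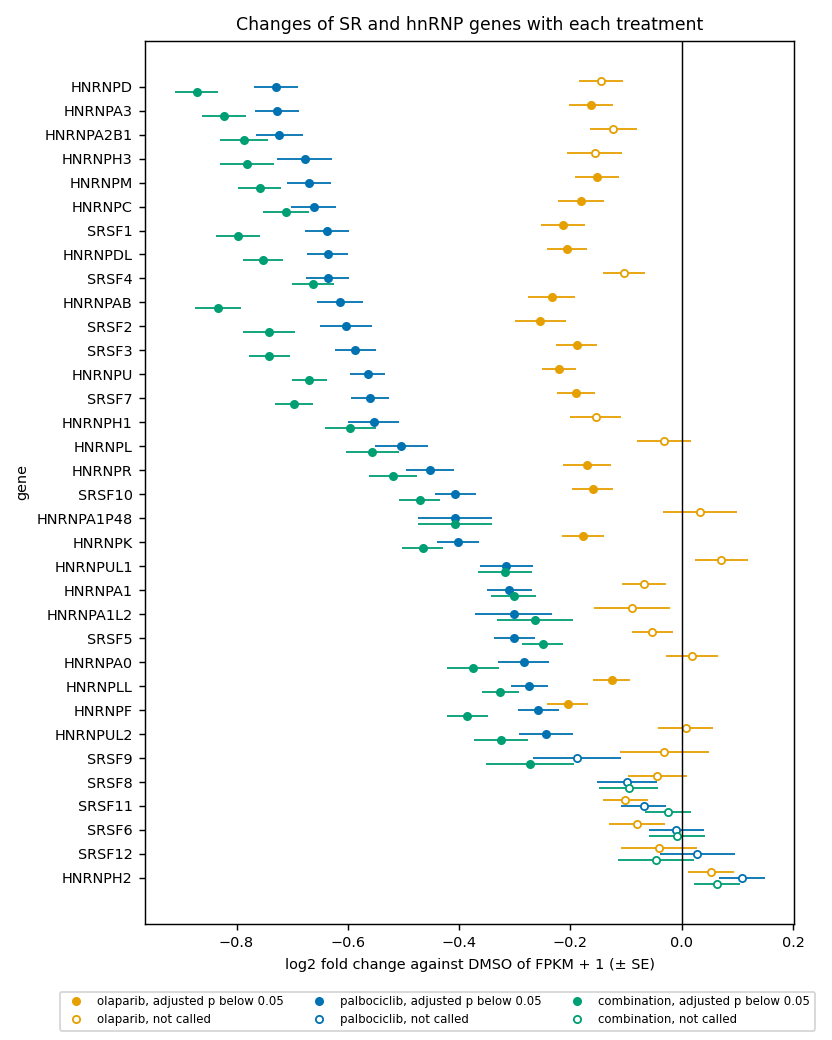
Log2 fold change against DMSO on the FPKM + 1 scale (horizontal axis, with SE bars) of the 34 tested members (rows, ordered by the palbociclib value) for olaparib, palbociclib and the combination, with filled points past an adjusted p of 0.05. Palbociclib values run from −0.73 for HNRNPD to 0.11 for HNRNPH2, and the olaparib values all lie between −0.25 and 0.07.

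The combination was compared with DMSO next. It lowered 29 of 34 members and raised none, against 35.3% lower and 21.5% higher over all genes and 55.7% lower among genes of at least 10 FPKM. The 29 were the 28 genes of palbociclib and SRSF9. The median was −0.49, beside −0.06 for all genes and −0.19 for those of at least 10 FPKM. Both combination libraries lay below both DMSO libraries in 31 of 34 members, against 46.9% of all genes. These counts share the DMSO libraries with those of palbociclib, so they are not separate evidence. HNRNPD fell by 0.87 (SE 0.04), HNRNPAB by 0.83 (SE 0.04), HNRNPA3 by 0.82 (SE 0.04), SRSF1 by 0.80 (SE 0.04) and HNRNPA2B1 by 0.79 (SE 0.04), with limma adjusted p from 1.45e-05 to 2.03e-05. In linear FPKM, HNRNPD stood at 54.2% of its DMSO mean, HNRNPAB at 56.0% and SRSF1 at 57.2%. HNRNPA1 stayed at 81.1%, SRSF5 at 83.9% and SRSF6 at 99.3%. SRSF9 was 30.6 and 37.1 FPKM with the combination, the widest replicate gap relative to its mean among the 12 SRSF genes there (log2 −0.27 ± 0.08, limma adjusted p = 0.0222). Its value was −0.14 without combination replicate 1 and −0.41 without replicate 2, and its call was lost without either DMSO library. The call for HNRNPA1L2 (−0.26 ± 0.07) was lost without DMSO replicate 1, DMSO replicate 2 or combination replicate 2. SRSF5 had −0.25 ± 0.04 as deposited and 0.00435 under quantile normalisation, where the calls for HNRNPA1 (−0.11) and HNRNPUL1 (−0.03) were lost too. Across the 14 alternatives 24 of the 29 were called lower in every one, the exceptions being SRSF5, SRSF9, HNRNPA1, HNRNPA1L2 and HNRNPUL1.

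The 5 members called in no comparison were SRSF6, SRSF8, SRSF11, SRSF12 and HNRNPH2. With the combination their log2 values ran from −0.10 ± 0.05 (SRSF8) to 0.06 ± 0.04 (HNRNPH2). SRSF12 was 3.08 and 3.11 FPKM in DMSO, 3.44 and 2.93 with palbociclib, then 3.03 and 2.90 with the combination, with 302 to 455 reads per library. Under quantile normalisation SRSF6, SRSF11 and HNRNPH2 were called higher with the combination, and under TPM HNRNPH2 alone, so that the scaling decides whether these 3 are read as flat or raised.

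Olaparib was compared with DMSO to see the PARP inhibitor alone. It lowered 15 of 34 members, with none higher and 19 not passing, against 10.5% lower and 4.13% higher over all genes and 20.8% lower among genes of at least 10 FPKM. The median was −0.14, beside −0.03 for all genes and −0.07 for those of at least 10 FPKM. The called genes were SRSF1, SRSF2, SRSF3, SRSF7 and SRSF10 and the HNRNP genes A3, AB, C, DL, F, K, LL, M, R and U. All 15 were also lower with palbociclib, against the same DMSO libraries. SRSF2 had the lowest value, −0.25 ± 0.05 (limma adjusted p = 0.02), with HNRNPAB at −0.23 ± 0.04, HNRNPU at −0.22 ± 0.03, SRSF1 at −0.21 ± 0.04 and HNRNPDL at −0.21 ± 0.04. HNRNPD, which led with palbociclib, had −0.15 ± 0.04 and just missed (limma adjusted p = 0.0501). HNRNPUL1 was 89.9 and 89.2 FPKM in DMSO and 90.6 and 97.8 with olaparib, the 1 tested member whose olaparib libraries both lay above both DMSO libraries (0.07 ± 0.05, limma adjusted p = 0.353). Both olaparib libraries lay below both DMSO libraries in 26 of 34 members, against 38.6% of all genes.

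The olaparib calls rest on few libraries. The count was 0 without DMSO replicate 1, DMSO replicate 2 or olaparib replicate 2, and 1 without olaparib replicate 1. It was 3 under TPM, where the split of all calls went from 28.2% to 68.8% higher, and 1 under quantile normalisation (60.2% higher). With voom on recovered reads it was 19, but voom used the same kind of scaling between libraries as the deposited values.

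Palbociclib added to olaparib was read by comparing the combination with olaparib alone. It lowered 28 of 34 members and raised none, against 27.4% lower and 17.0% higher over all genes and 45.7% lower among genes of at least 10 FPKM. HNRNPD had −0.73 ± 0.04, HNRNPA2B1 −0.66 ± 0.04, HNRNPA3 −0.66 ± 0.04 and HNRNPH3 −0.62 ± 0.05. The smallest falls that passed were those of HNRNPF (−0.18 ± 0.04), SRSF5 (−0.20 ± 0.04), HNRNPLL (−0.20 ± 0.03), HNRNPA1 (−0.23 ± 0.04) and SRSF9 (−0.24 ± 0.08, limma adjusted p = 0.0443). The call for SRSF9 was kept in 1 of the 8 fits that left out a library, that without combination replicate 2 (−0.38), and its value was −0.11 without combination replicate 1. Under quantile normalisation the calls for HNRNPA1 (−0.11), HNRNPF (−0.05) and SRSF5 (−0.01) were lost, those of HNRNPF and SRSF5 also under TPM, and 24 of the 28 were called lower in all 14 alternatives. HNRNPA1L2, called with palbociclib alone, did not pass here (−0.17 ± 0.07).

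Olaparib added to palbociclib changed no member past the threshold. In limma 0 of 34 members were called, beside 0.0161% lower and 0.00804% higher over all genes, and voom called 1, HNRNPAB. An unadjusted p under 0.05 was found for 10 members, all among the 32 with a mean of at least 10 FPKM, beside 2067 of all 12443 genes and 1167 of the 4816 genes in that range. The values were below zero in 28 of 34 members, with a median of −0.07, beside 7219 of all genes and a median of −0.02 (3535 and −0.05 among the 4816). In 21 members both combination libraries lay below both palbociclib libraries, against 29.1% of all genes. HNRNPAB had −0.22 ± 0.04 (limma adjusted p = 0.128), SRSF1 −0.16 ± 0.04, SRSF3 −0.16 ± 0.04, HNRNPD −0.14 ± 0.04, SRSF2 −0.14 ± 0.05 and SRSF7 −0.14 ± 0.03. SRSF6 had 0.00 ± 0.05 and SRSF5 0.05 ± 0.04.

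The departure from additivity, the olaparib effect with palbociclib minus that without it, was called in 0 of 34 members by limma and by voom (limma: 0.00804% of all genes lower and 0.0% higher). An unadjusted p under 0.05 was found for 2 members, SRSF11 and HNRNPU (0.12 ± 0.04), and for 1315 of all genes. The median was 0.07 with 8 of 34 members below zero, beside 0.02 and 5646 of 12443 for all genes. Among the 4816 genes with a mean of at least 10 FPKM they were 0.03 and 2015. The values ran from −0.11 ± 0.07 for HNRNPA0 to 0.15 ± 0.06 for SRSF11. HNRNPD had 0.00 ± 0.06, HNRNPAB 0.01 ± 0.06, SRSF3 0.03 ± 0.05 and SRSF1 0.05 ± 0.06. With 2 libraries per group these values do not show that the effects add exactly.

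The rest of the splicing machinery was counted from lists chosen by function. Each of the 7 tested Sm core genes, which form the ring of the spliceosomal particles, fell with palbociclib (median log2 −0.59), led by SNRPG (−0.68 ± 0.05) and SNRPF (−0.65 ± 0.06). In the U1 and U2 particles 15 of 20 genes fell (median −0.26), with SNRPA1 at −0.70 ± 0.04 and PHF5A at −0.63 ± 0.05. All 16 U5 and tri-snRNP genes fell (median −0.34), among them USP39 (−0.64 ± 0.05) and PRPF8, the catalytic centre's scaffold (−0.53 ± 0.03). Lower were also 7 of 12 genes of splice site recognition, with RBM5 higher (0.23 ± 0.06), and 14 of 21 catalytic and PRPF19-complex genes. Over all genes 31.4% were called lower with palbociclib and 18.7% higher. Among genes with a mean of at least 10 FPKM 49.8% were lower.

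Regulators and relatives of the members were counted next, to be read beside the same shares of all genes. Of 13 genes in a list of SR protein kinases and import genes, which also held SAFB and SAFB2, 9 fell with palbociclib. Among the 9 was SRPK1, which phosphorylates SR proteins in the cytoplasm (−0.44 ± 0.05). CLK2, a nuclear SR protein kinase, rose (0.14 ± 0.05, limma adjusted p = 0.0443). Of 21 SR-related genes 13 fell, led by the exon activator TRA2B (−0.54 ± 0.04), and SCAF11 rose (0.18 ± 0.05). Among 23 hnRNP relatives under other symbols 17 fell, such as SYNCRIP (−0.63 ± 0.05) and TARDBP (−0.57 ± 0.04), and 2 rose, RBFOX2 (0.22 ± 0.03) and MBNL2 (0.20 ± 0.06). In the exon junction and decay list 11 of 15 fell, led by MAGOHB (−0.73 ± 0.05). Beside these lists, 21 of 22 HNRNP genes and 7 of 12 SRSF genes were lower, and the difference between the families was not tested. All 20 proliferation markers fell in the same libraries with a median of −0.78, led by CCNA2 (−1.23 ± 0.04), and their part in the members' fall was not tested. The counts of lower genes depended on scaling: under quantile normalisation and TPM they were 6 and 7 for the Sm core, 9 and 10 for U1 and U2, 11 and 13 for U5, 3 and 5 for splice site recognition, 9 and 7 for the catalytic list, 6 and 7 for the kinases, 9 and 10 for SR-related genes, 13 and 13 for hnRNP relatives, 8 and 7 for the decay list and 19 and 20 for proliferation. TPM also changed the genes tested, to 8 in the Sm core, 13 in splice site recognition and 24 hnRNP relatives. Of all calls with palbociclib, 37.3% were higher as deposited, 46.5% under quantile normalisation and 58.6% under TPM. RBM5, CLK2, SCAF11, RBFOX2 and MBNL2 were called higher under both quantile normalisation and TPM. Further genes called higher, chosen after their values were seen, were LUC7L, XAB2, SYF2, SRRM2 and PCBP4 under both, TIA1 under quantile normalisation and CLK3 under TPM.

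**Figure D4:**
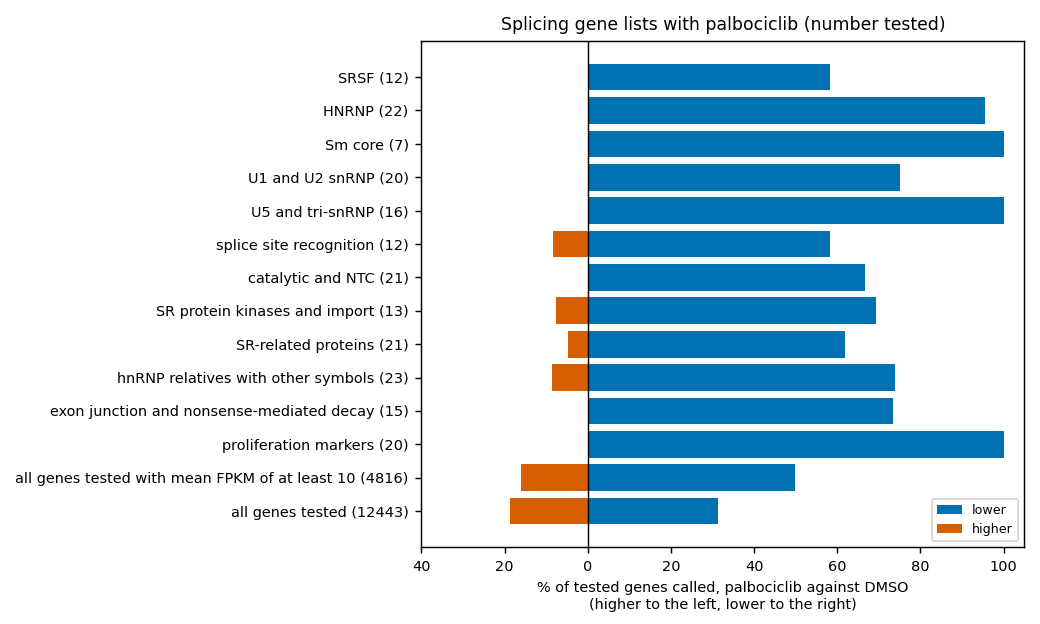
Share of tested genes (horizontal axis, %) called lower (right, blue) or higher (left, orange) with palbociclib against DMSO, for the SRSF and HNRNP genes, 9 lists of other splicing and decay genes, proliferation markers and 2 backgrounds, with the number tested in brackets. HNRNP genes reach 21 of 22 lower and SRSF genes 7 of 12, beside 31.4% of all genes and 49.8% of genes with a mean of at least 10 FPKM.

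The 250 bases before the members' transcription starts were searched for 7 motifs, taken from RefSeq on GRCh38.p14, which held 35 of the 39 members. These are not the same 35 as those with levels. They include HNRNPCL1, HNRNPCL2 and HNRNPCL4 and lack SRSF2, HNRNPA1, HNRNPA1P48 and HNRNPCL3. A single RefSeq start per symbol was used, which need not be the outer start of the GENCODE v29 gene. For example, the windows of SRSF5, SRSF11 and HNRNPA2B1 lie inside that gene, and that of HNRNPA1L2 lies well before it. The E2F-type motif TTCCCGC, searched on both strands, was present in 8 of 35 member promoters (22.9%) and in 5.59% of 27305 promoters. The 8 were SRSF4, SRSF10, SRSF12, HNRNPA2B1, HNRNPDL, HNRNPK, HNRNPL and HNRNPLL. Of them 7 were called lower with palbociclib, and SRSF12 was not. Of the 23 tested members with a promoter but without this motif 18 were called lower. The CCAAT box was present in 18 of 35 (51.4%, all promoters 33.0%), the ETS motif CCGGAAG in 5 (14.3%, all 8.82%), the E-box CACGTG in 6 (17.1%, all 6.49%) and TATAAA in 5 (14.3%, all 11.1%). All motifs were searched on both strands. The CCAAT holders include HNRNPCL1 and HNRNPCL2, whose levels were not analysed, and HNRNPUL2 and HNRNPUL2-BSCL2, whose windows overlap. The YY1 motif AAGATGGC and the palindromic NRF1 motif were present in none (all promoters 1.37% and 1.13%). Among tested members with a promoter, 13 of 15 with a CCAAT box and 12 of 16 without were called lower with palbociclib. The same counts were 5 of 5 and 20 of 26 for the ETS motif, and 5 of 6 and 20 of 25 for the E-box. For TATAAA they were 4 of 5 and 21 of 26. Members' upstream windows had a median GC content of 64.8%, beside 58% in all. Promoters of 2 members that fell and 1 that did not are shown on the strand of the gene, with motif matches in capitals: SRSF4 (chr1:29181901-29182150, minus), HNRNPA2B1 (chr7:26200747-26200996, minus), where the E2F-type match and the CCAAT box are a single base apart, and SRSF11 (chr1:70221130-70221379, plus), with a TATAAA match.
SRSF4: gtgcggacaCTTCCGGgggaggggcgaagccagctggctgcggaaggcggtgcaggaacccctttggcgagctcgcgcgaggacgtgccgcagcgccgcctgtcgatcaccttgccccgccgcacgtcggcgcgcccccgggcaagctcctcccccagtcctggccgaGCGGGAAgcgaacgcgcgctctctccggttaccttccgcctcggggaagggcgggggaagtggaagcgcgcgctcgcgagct
HNRNPA2B1: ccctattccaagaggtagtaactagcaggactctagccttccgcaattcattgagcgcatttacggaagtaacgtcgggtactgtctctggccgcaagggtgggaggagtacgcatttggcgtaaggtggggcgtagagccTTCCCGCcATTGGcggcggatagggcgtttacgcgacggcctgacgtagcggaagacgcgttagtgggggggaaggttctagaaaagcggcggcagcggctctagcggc
SRSF11: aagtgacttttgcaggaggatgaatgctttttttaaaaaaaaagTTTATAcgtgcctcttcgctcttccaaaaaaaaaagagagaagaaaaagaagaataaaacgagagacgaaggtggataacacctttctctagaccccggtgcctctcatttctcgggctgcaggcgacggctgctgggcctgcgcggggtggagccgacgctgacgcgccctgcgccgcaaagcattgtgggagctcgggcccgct
A match describes letters in these windows and no binding was measured.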

How the data were processed

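Polyadenylated RNA was sequenced from 8 libraries (NEBNext Ultra kit, per the labels' protocols). Per the submitters' processing notes, the tools included STAR 2.5.1b, HTSeq 0.6.0 and CASAVA 1.8, on GRCh38 (also called hg38 there). The authors deposited FPKM values, 1 column per library. Their scaling between libraries matched median-of-ratios factors to within 4.4e-14%. Such factors come from the median over genes of each library's ratio to the mean library, not from total reads. With GENCODE v29 exon lengths, 90.3% of genes gave whole reads in every library within 0.01 reads, and for the others a length was searched for (31720 of 31721 genes after both steps). Symbols, positions and transcript classes came from GENCODE v29, which held 30945 of the 31721 identifiers.

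The test was limma 3.58.1 in R 4.3.3 on log2 of FPKM with a pseudocount of 1. A single fit of all 8 libraries held a mean for each group and no replicate block (4 residual degrees of freedom), and variances were moderated with an intensity trend. Genes with a mean of at least 1 FPKM were tested (12443), and p-values were adjusted by Benjamini-Hochberg over all of them. Fold changes on this scale understate changes of low genes. The fit was tested on simulated data. With 2 libraries against 2, the smallest exact permutation p is 0.333. Any member could be named with its values. The rule gave full statistics to the 5 highest and 5 lowest called members of a comparison, and those of further members were chosen after their values were seen. Of each other list the 2 highest and 2 lowest called genes could be named. MATR3, with 2 identifiers, was counted by 1 of them, which was below the filter, so MATR3 was not among the tested hnRNP relatives. Members and lists were chosen with earlier results of these data known. Alternatives were a pseudocount of 0.1, no filter, quantile normalisation, TPM, voom on recovered reads, a replicate block and leaving out each library.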

Additional observations from a re-analysis of the deposited data

How the results depend on the processing

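The members' falls with palbociclib, with the combination, and with the combination against olaparib stayed within 1.5 times of their counts under each of the 14 alternatives run. The count lowered by olaparib went from 15 to 3 with no filter, 1 under quantile normalisation and 3 under TPM, and ran from 0 to 15 when 1 library was left out. Members called higher, 0 as deposited, numbered 1 with olaparib, 1 with palbociclib, 3 with the combination and 3 for the combination against olaparib under quantile normalisation, and 1 with palbociclib, 1 with the combination and 1 for the combination against olaparib under TPM. Voom called 1 member lower for the combination against palbociclib. SRSF5 with the combination reversed under quantile normalisation, to 0.00435 (limma adjusted p = 0.950). Apart from the scaling steps, the cause was not tested. With the replicate number as a block, which the labels do not tie to a batch, the counts were 16 lower with olaparib, 28 with palbociclib and 29 with the combination. The same-numbered libraries' deviations correlated at −0.0467 to 0.0342 over the 6 pairs of groups, so no pairing by number was seen. A pairing limited to some genes, or small beside the noise, need not show in such correlations. A fit that leaves a group with 1 library assumes that it varies like the others.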
